A study of Mus musculus with 8 samples.

Results

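The genes described here encode the working parts of the lysosome: 3 transcription factors that control lysosomal genes, 5 membrane proteins, 21 luminal enzymes and their helpers, and 14 subunits or accessory proteins of the vacuolar proton pump (V-ATPase). They were chosen by symbol as a list of 43 genes, without use of their measured values in the rule. All 43 were among the 17847 genes of the table, and all 43 were tested among 17801. None was listed at 0 in any library. RNA came from muscle stem cells of adult C57Bl/6 mice, sorted as CD34+ cells without Sca1, CD45, CD31 or DAPI (a stain of dead cells). There were 4 wild-type and 4 Cox10-/- libraries; the Cox10-/- animals had floxed Cox10 and Pax7-Cre (ERT2), a recombinase active in Pax7-expressing cells after tamoxifen. The treatment label of both genotypes is 200 mg/kg tamoxifen, given once into the peritoneum, and purification followed 2 days later. The labels do not say whether wild-type animals carried Cre or an unrecombined floxed allele, or that each library came from its own animal, so p-values measure the spread between these samples.

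Lysosomes are acidic compartments in which proteases, glycosidases and lipases break down material delivered by endocytosis and autophagy. The V-ATPase acidifies them: its membrane sector, V0, carries protons, and its cytosolic sector, V1, hydrolyses ATP to drive the pump. TFEB, TFE3 and MITF are related helix-loop-helix factors that bind a shared palindromic DNA element near the start sites of many lysosomal genes, and they are held in the cytosol when mTORC1 on the lysosome surface is active. Quiescent muscle stem cells are known to depend on autophagy and lysosomal clearance.

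Libraries held 1693349 to 4650051 reads counted in genes, as recovered from the steps of the values. The members held between 22 reads (Atp6v1f, a small V1 subunit) and 1531 reads in a library. Values are log2 CPM, the log2 of a gene's reads scaled to the library's total of reads in genes. Of the stem cell markers, Pax7 lay at 8.45 to 8.77 log2 CPM in wild-type and 7.15 to 7.52 in Cox10-/-, and 7 of 12 markers fell. Of 15 macrophage markers, 11, including Ptprc, which encodes CD45, were not listed in the table, and the 4 measured markers summed to 16.4 to 24.7 CPM in wild-type and 18.9 to 41.6 in Cox10-/- with no call. Of 15 endothelial markers 6 rose, and all 15 summed to 368 to 405 CPM in wild-type and 440 to 535 in Cox10-/-. Of 10 fibroblast and mural markers 3 rose and 1 fell, and all 10 summed to a high level, 5282 to 7204 CPM in wild-type and 5542 to 11470 in Cox10-/-. Unlike Ptprc, the genes of the other sort markers were listed. Cd34, for the marker that the sorted cells carry, lay at 7.24 to 7.53 log2 CPM in wild-type and 6.92 to 7.32 in Cox10-/-. It was not called (difference -0.26, limma adjusted p = 0.136). Pecam1 and Ly6a, for markers that the sorted cells lack, rose. Pecam1, which encodes CD31, lay at 2.70 to 4.32 log2 CPM in wild-type and 3.76 to 4.86 in Cox10-/- (limma adjusted p = 0.024). Ly6a, which encodes Sca1, lay at 0 to 2.24 and 2.34 to 3.82 (limma adjusted p = 0.0202). Of 10 myofibre markers 2 rose, and all 10 summed to 97.9 to 246 CPM in wild-type and 137 to 374 in Cox10-/-. The part of these other cell types in the lysosomal values was not tested. In bulk RNA, fewer cells of a type and less RNA per cell cannot be told apart. Cox10 itself stood at 3.98, 3.42, 4.12 and 3.69 log2 CPM in wild-type replicates 1 to 4 and at 3.51, 3.69, 3.49 and 2.05 in Cox10-/- replicates 1 to 4. These ranges overlapped, and the difference of -0.62 ± 0.34 (log2, SE, n = 4 per genotype) did not pass the test (limma adjusted p = 0.246).

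Promoter sequences were taken from RefSeq (GRCm38.p6, windows of 250 bases before to 50 after a start site), and 37 of the 43 members had at least 1. Ctsb, Ctsh, Asah1, Atp6v1b2, Atp6v1c1 and Atp6v1h had none. Searched motifs read the same on both strands: TCACGTGA, the core of the element bound by this factor family; the longer palindrome, which is that core with G before it and C after it; and CACGTG, the hexamer inside both. TCACGTGA stood in the window of 7 of 37 members (18.9%), against 2.01% of the 11066 genes of the table with a window and 0.974% of all 32851 windows. CACGTG stood in 15 of 37 members (40.5%), against 11.3% of those genes and 7.15% of all windows. The longer palindrome was in none of the 37, against 0.768% of those genes and 0.326% of all windows, and in 4 of 83 other lysosomal genes with a window (4.82%). The related TCATGTGA, searched on both strands, was in 4 of 37 members (10.8%), against 0.976% of those genes and 0.986% of all windows. The 5 sequences below show the V1 subunit that rose the most, the V1 subunit that fell, a V0 subunit and the channel gene Mcoln1 with the core motif, and Igf2r, a sorting receptor that fell and holds the longer palindrome. Capitals mark TCACGTGA in Atp6v1a, Atp6v0e and Mcoln1 and the longer palindrome in Igf2r, which also holds another TCACGTGA in lower case, and Atp6v1e1 has no CACGTG. Each runs 5′ to 3′ on the strand of the gene and ends at the last base before the start site, or with the motif where that crosses it.
Atp6v1e1 (chr6:120822699-120822948, minus strand): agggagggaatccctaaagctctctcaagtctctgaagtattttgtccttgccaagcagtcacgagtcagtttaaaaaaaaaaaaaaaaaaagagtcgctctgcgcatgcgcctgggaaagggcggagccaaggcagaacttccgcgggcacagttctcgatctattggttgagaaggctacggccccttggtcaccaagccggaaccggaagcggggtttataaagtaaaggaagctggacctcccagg
Atp6v1a (chr16:44139260-44139509, minus strand): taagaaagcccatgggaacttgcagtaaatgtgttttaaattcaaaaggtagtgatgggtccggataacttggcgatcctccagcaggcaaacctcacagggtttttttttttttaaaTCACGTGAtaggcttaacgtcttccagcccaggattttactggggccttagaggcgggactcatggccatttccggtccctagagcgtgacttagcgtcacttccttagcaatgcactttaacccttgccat
Atp6v0e (chr17:26676146-26676405, plus strand): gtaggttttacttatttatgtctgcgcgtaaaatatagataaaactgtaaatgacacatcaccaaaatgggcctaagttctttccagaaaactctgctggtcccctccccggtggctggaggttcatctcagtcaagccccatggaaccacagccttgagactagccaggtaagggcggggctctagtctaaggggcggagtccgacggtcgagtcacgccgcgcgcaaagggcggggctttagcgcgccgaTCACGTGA
Mcoln1 (chr8:3500269-3500518, plus strand): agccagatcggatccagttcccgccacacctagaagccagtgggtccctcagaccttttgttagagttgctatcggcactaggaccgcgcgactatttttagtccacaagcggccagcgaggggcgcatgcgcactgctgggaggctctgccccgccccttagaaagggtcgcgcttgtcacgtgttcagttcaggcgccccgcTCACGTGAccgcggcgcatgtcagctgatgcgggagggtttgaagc
Igf2r (chr17:12769706-12769956, minus strand): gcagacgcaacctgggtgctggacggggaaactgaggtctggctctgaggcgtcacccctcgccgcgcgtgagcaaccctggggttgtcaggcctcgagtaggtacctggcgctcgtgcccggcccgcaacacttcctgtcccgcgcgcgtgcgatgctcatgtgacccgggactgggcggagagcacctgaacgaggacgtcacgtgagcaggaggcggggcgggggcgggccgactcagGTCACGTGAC
The motif begins 132 bases before the start site in Atp6v1a, 46 before it in Mcoln1 and 9 before it in Igf2r, and at the third transcribed base in Atp6v0e. In GENCODE M21 the gene models of Atp6v1a and Atp6v0e begin upstream of these RefSeq windows, and those of Atp6v1e1 and Mcoln1 begin within them. A match describes these letters only and is not evidence of binding.

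The comparison asks which lysosomal transcripts differed 2 days after tamoxifen in cells targeted for loss of Cox10, an enzyme of haem A synthesis that complex IV of the respiratory chain needs. Most did not pass the test: 5 members rose (11.6%), 1 fell (2.33%) and 37 were not called. Over all genes tested, 7.58% rose and 8.51% fell, so the share of members that rose lay near the background and the share that fell lay below it. The members that rose were the transcription factor Mitf, the protease Ctsl and the V1 subunits Atp6v1e1, Atp6v1c1 and Atp6v1b2, and the member that fell was the V1 subunit Atp6v1a. The median log2 fold change was 0.08 over the members and -0.06 over all genes tested. Above 0 lay 24 of 43 members (55.8%) and 45.0% of all genes tested. All 4 Cox10-/- libraries lay above all 4 wild-type libraries in 6 members, and below them in 2; over all genes these shares were 9.3% and 11.8%. Of all 2863 genes called (16.1%), rises made up 47.1% as deposited and 58.4% after each library was centred on its median. After that centring the 5 members that rose kept their calls, no member fell, and 32 of 43 lay above 0. In that fit 9.91% of all genes rose and 7.07% fell. Centring moves the difference of every gene up by the same amount, and the median of all genes became 0.03. On GRCm38, Mitf lies at chr6:97807052-98021349, Ctsl at chr13:64359337-64370890, Atp6v1e1 at chr6:120794305-120822793, Atp6v1c1 at chr15:38661933-38692446, Atp6v1b2 at chr8:69088646-69113711 and Atp6v1a at chr16:44085402-44139705.

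**Figure D1:**
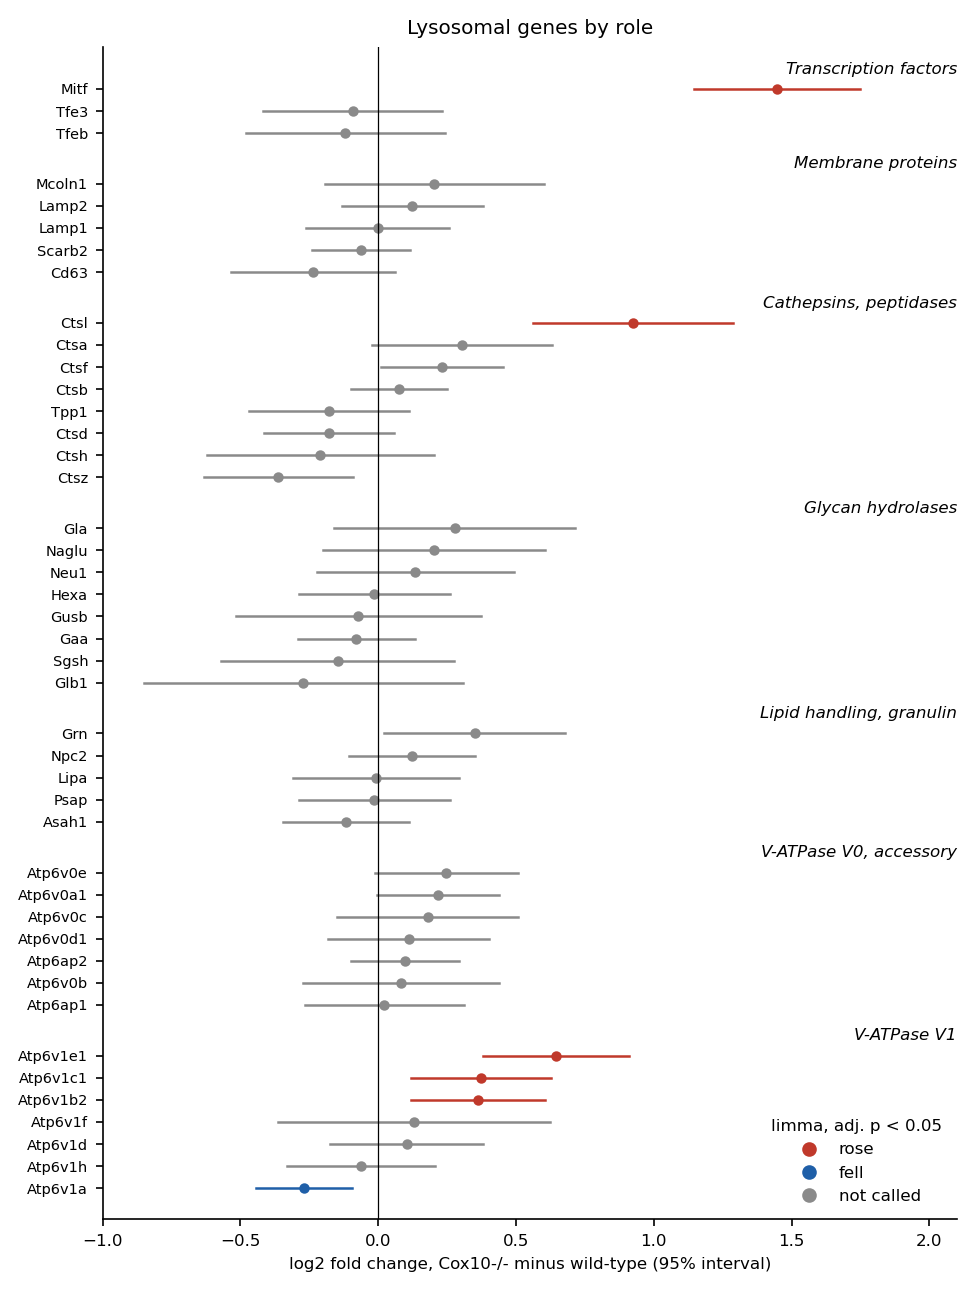
Log2 fold change (Cox10-/- minus wild-type, x axis) of the 43 lysosomal genes, grouped by role; points are limma estimates from 4 libraries per genotype and lines are 95% intervals. Mitf at 1.45 and Ctsl at 0.93 stand apart from the 37 grey members, which lie between -0.36 and 0.35.

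Of the 3 transcription factors, Mitf rose and Tfeb and Tfe3 were not called. Mitf, best known for its role in melanocytes and osteoclasts, lay at 5.27, 4.85, 5.14 and 5.20 log2 CPM in wild-type replicates 1 to 4 and at 6.52, 6.26, 6.74 and 6.73 in Cox10-/- replicates 1 to 4. The genotypes did not overlap. Mitf rose by 1.45 ± 0.14 (log2, SE, n = 4 per genotype; limma adjusted p = 4.0e-05), 2.73-fold, with a 95% interval of 1.15 to 1.75. Replicates 1 and 2 differed by 1.33, and replicates 3 and 4 by 1.57. Mitf kept its call in each of the 8 fits that left out 1 library. Tfeb, the factor most closely tied to lysosome formation, lay at 5.10, 4.62, 5.11 and 4.81 in wild-type and 5.08, 4.80, 4.55 and 4.73 in Cox10-/- (difference -0.12 ± 0.17, SE; limma adjusted p = 0.669; 95% interval -0.48 to 0.24). Tfe3, its close relative, lay at 6.97, 7.02, 6.98 and 6.61 in wild-type and 7.03, 7.04, 6.76 and 6.38 in Cox10-/- (difference -0.09 ± 0.15, SE; limma adjusted p = 0.718; 95% interval -0.42 to 0.23). In both of these the genotypes overlapped, and replicate 4 held the lowest Tfe3 value of each genotype. Per kilobase of the longest principal transcript in GENCODE M21, Mitf went from 7.1 to 19.4 CPM per kb, Tfeb from 13.1 to 12.05 and Tfe3 from 36.3 to 34.1. On this scale Mitf lay below Tfeb in wild-type and above it in Cox10-/-, and below Tfe3 in both. Mitf has several start sites, 3 with RefSeq windows (none with CACGTG), and the gene-level values do not tell its isoforms apart.

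**Figure D2:**
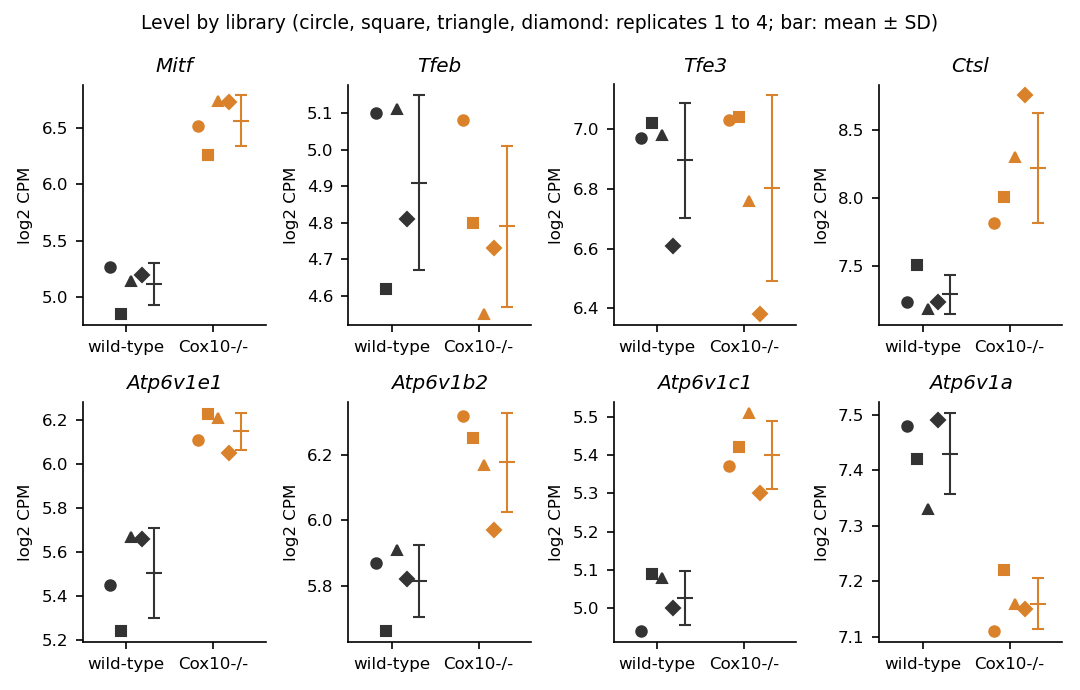
Log2 CPM (y axis, scaled per gene) of 8 lysosomal genes in 4 wild-type and 4 Cox10-/- libraries; circle, square, triangle and diamond mark replicates 1 to 4, and bars give mean ± SD. Genotypes do not overlap for Mitf, Ctsl and the 4 V1 subunits shown, and overlap for Tfeb and Tfe3.

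None of the 5 lysosomal membrane proteins was called. Lamp1 and Lamp2, the abundant glycoproteins that line the lysosomal membrane, differed by -0.00 ± 0.12 and 0.12 ± 0.12 (log2, SE, n = 4 per genotype), with limma adjusted p = 0.991 and 0.517. Lamp1 lay at 7.09 to 7.26 log2 CPM in wild-type and 6.97 to 7.51 in Cox10-/-, and Lamp2 at 8.10 to 8.58 and 8.25 to 8.57. Scarb2, the receptor that carries glucocerebrosidase to lysosomes, had the narrowest interval of the group, -0.24 to 0.12. Cd63, a tetraspanin of late endosomes and exosomes, differed by -0.24 ± 0.14 (limma adjusted p = 0.263), and Mcoln1, a calcium channel of the lysosomal membrane, by 0.20 ± 0.18 (limma adjusted p = 0.49). The signs were not stable within the replicates: Cd63 differed by -0.59 in replicates 1 and 2 and by 0.12 in replicates 3 and 4, Lamp2 by -0.14 and 0.39, and Mcoln1 by 0.54 and -0.14.

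Among 8 cathepsins and other peptidases, Ctsl rose and the other 7 were not called. Cathepsin L, a cysteine endoprotease, lay at 7.24, 7.51, 7.19 and 7.24 log2 CPM in wild-type replicates 1 to 4 and at 7.82, 8.01, 8.30 and 8.75 in Cox10-/- replicates 1 to 4. Every Cox10-/- library lay above every wild-type library, and Cox10-/- replicate 4 was the highest. Ctsl rose by 0.93 ± 0.17 (log2, SE, n = 4 per genotype; limma adjusted p = 0.00297), 1.90-fold, with a 95% interval of 0.56 to 1.29. Replicates 1 and 2 differed by 0.54 and replicates 3 and 4 by 1.31, and the lowest estimate with 1 library left out was 0.75. The fibroblast and mural markers summed to 5616, 5542, 8233 and 11470 CPM in Cox10-/- replicates 1 to 4 and to 5282, 7204, 5840 and 6841 in wild-type replicates 1 to 4, and these sums are carried mostly by collagens. Pdgfra, a fibroblast receptor, lay at 8.97 to 9.64 log2 CPM in Cox10-/- and at 7.96 to 8.73 in wild-type. Pdgfrb, a mural receptor, lay at 8.02 to 8.41 and 6.99 to 7.63. Both were higher in every Cox10-/- library, as was Ly6a. Dpt, of the same 10 markers, was lower in every one, at 6.04 to 6.66 in Cox10-/- and 6.72 to 6.89 in wild-type. The other 6, among them the collagens and Lum, were not called. The part of fibroblast and mural cells in the size of the rise of Ctsl was not tested.

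The related cathepsins did not share this rise. Ctsb, a cysteine protease with both endo- and exopeptidase activity, lay at 7.82 to 7.93 log2 CPM in wild-type and 7.87 to 8.05 in Cox10-/- (difference 0.08 ± 0.08, SE, n = 4 per genotype; limma adjusted p = 0.563). Ctsz, a carboxypeptidase, lay at 6.74, 6.72, 6.71 and 6.84 in wild-type and at 6.17, 6.16, 6.57 and 6.66 in Cox10-/-. Its genotypes did not overlap, but its difference of -0.36 ± 0.12 missed the threshold (limma adjusted p = 0.0673) and was larger in replicates 1 and 2 (-0.57) than in replicates 3 and 4 (-0.16). It passed in the test on recovered reads (limma voom adjusted p = 0.0344), where 7.92% of all genes rose and 8.97% fell, and, among the fits without 1 library, in 1 of 8. Ctsf differed by 0.23 ± 0.10 (limma adjusted p = 0.143) and Ctsa, the protective protein that stabilises beta-galactosidase and neuraminidase, by 0.31 ± 0.15 (limma adjusted p = 0.19). Ctsd, the main aspartic protease of lysosomes, Ctsh and the tripeptidyl peptidase Tpp1 had differences of -0.18, -0.21 and -0.18. Exons of Ctsa overlap Pltp and Neurl2, exons of Ctsb overlap Fdft1, exons of Ctsz overlap Nelfcd, all on the other strand, and exons of Ctsl overlap the gene models Gm49230 and Gm47123 in GENCODE M21. Whether counting used strand is not given in the sources used here.

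No glycan-degrading hydrolase was called among 8, and their differences lay between -0.27 and 0.28 with a median of -0.04. Gaa, the acid alpha-glucosidase that breaks down glycogen in lysosomes and is deficient in Pompe disease, had the highest wild-type level per kilobase of the group, 50.3 CPM per kb. It lay at 7.41, 7.40, 7.63 and 7.61 log2 CPM in wild-type and 7.33, 7.30, 7.54 and 7.56 in Cox10-/- (difference -0.08 ± 0.10, SE, n = 4 per genotype; limma adjusted p = 0.623; 95% interval -0.29 to 0.13). Replicates 3 and 4 were higher than replicates 1 and 2 in both genotypes by more than the genotypes differed. Hexa, a subunit of beta-hexosaminidase, lay at 5.75 to 6.30 in wild-type and 5.98 to 6.12 in Cox10-/-. Gla, alpha-galactosidase A, differed by 0.28 ± 0.20 (limma adjusted p = 0.379), by 0.57 in replicates 1 and 2 and by -0.01 in replicates 3 and 4. Glb1, beta-galactosidase, had the widest interval of the members not called, -0.85 to 0.31 around -0.27, and was low in wild-type replicate 2 at 3.60 log2 CPM against 4.80 to 4.95 in the other 3 wild-type libraries. Without that library Glb1 differed by -0.59 and passed the test (limma adjusted p = 0.0266). Gusb, Naglu, Neu1 and Sgsh lay between -0.15 and 0.20.

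The 5 genes of lipid handling and lysosomal cofactors were not called. Psap, the precursor of the saposins that present sphingolipids to hydrolases, lay at 8.02, 8.32, 8.09 and 8.18 log2 CPM in wild-type and 7.91, 7.92, 8.26 and 8.46 in Cox10-/- (difference -0.02 ± 0.13, SE, n = 4 per genotype; limma adjusted p = 0.951). Leaving out Ctsl, whose transcript model is uncertain, its wild-type level per kilobase was the highest of the members, 107 CPM per kb against 87.5 for Lamp2, the next. Grn, the precursor of granulins, lay at 6.73, 6.51, 6.92 and 6.99 in wild-type and 6.87, 6.88, 7.39 and 7.41 in Cox10-/- and overlapped. Its difference of 0.35 ± 0.15 did not pass (limma adjusted p = 0.137), though it was positive in both sets of replicates, 0.26 and 0.45. Asah1, acid ceramidase, Lipa, acid lipase, and Npc2, which hands cholesterol to the membrane transporter Npc1, differed by -0.12, -0.01 and 0.12. Of the 37 members not called, 23 had a 95% interval that lay wholly within 0.5 of 0 on the log2 scale and all 37 within 1. The intervals of the other 14 reach past 0.5 in at least 1 direction, so a difference of that size is not excluded there.

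Of 7 members in V1, the ATP-hydrolysing sector, 3 rose, 1 fell and 3 were not called, and of 7 V0 and accessory members none was called. Over all genes 7.58% rose and 8.51% fell; the difference between the sectors was not tested, and 3 of the 4 V1 calls were lost in most fits without 1 library. Atp6v1e1, a subunit of the peripheral stalks, lay at 5.45, 5.24, 5.67 and 5.66 log2 CPM in wild-type and 6.11, 6.23, 6.21 and 6.05 in Cox10-/-, with no overlap. It rose by 0.65 ± 0.12 (log2, SE, n = 4 per genotype; limma adjusted p = 0.00388), 1.56-fold, by 0.83 in replicates 1 and 2 and 0.47 in replicates 3 and 4. Its call held in all 8 fits without 1 library.

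The other 3 V1 calls were smaller. Atp6v1b2, the non-catalytic nucleotide-binding B subunit of most tissues, lay at 5.87, 5.66, 5.91 and 5.82 log2 CPM in wild-type and 6.32, 6.25, 6.17 and 5.97 in Cox10-/-. It rose by 0.36 ± 0.11 (log2, SE, n = 4 per genotype; limma adjusted p = 0.0445), 1.29-fold. Atp6v1c1, the subunit that links stalks to V0 and helps to control sector assembly, lay at 4.94, 5.09, 5.08 and 5.0 in wild-type and 5.37, 5.42, 5.51 and 5.30 in Cox10-/-. It rose by 0.37 ± 0.12 (limma adjusted p = 0.0469), 1.29-fold, by 0.38 in replicates 1 and 2 and 0.37 in replicates 3 and 4. In contrast Atp6v1a, the catalytic A subunit that pairs with B in the ATPase ring, lay at 7.48, 7.42, 7.33 and 7.49 in wild-type and 7.11, 7.22, 7.16 and 7.15 in Cox10-/-. It fell by 0.27 ± 0.08 (limma adjusted p = 0.0389), to 82.9% of wild-type, with -0.29 and -0.26 in the sets of replicates. In these 3 genes no library of one genotype crossed into the range of the other. Their calls were near the threshold: those of Atp6v1a and Atp6v1b2 were lost in 7 of 8 fits without 1 library and that of Atp6v1c1 in 6 of 8. The highest adjusted p was 0.108 for Atp6v1a with wild-type replicate 1 omitted, 0.105 for Atp6v1b2 with Cox10-/- replicate 1 omitted and 0.138 for Atp6v1c1 with Cox10-/- replicate 3 omitted. After centring each library on its median the fall of Atp6v1a was smaller, -0.19, and was not called.

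The remaining V1 members did not differ beyond their spread. Atp6v1d, of the rotor stalk, differed by 0.10 ± 0.13, Atp6v1f by 0.13 ± 0.23 and the regulatory subunit Atp6v1h by -0.06 ± 0.12 (log2, SE, n = 4 per genotype). Per kilobase of transcript in wild-type, Atp6v1a stood at 40.7 CPM per kb, Atp6v1h at 37.9, Atp6v1e1 at 34.6, Atp6v1f at 20.3, Atp6v1b2 at 19.9, Atp6v1c1 at 15.8 and Atp6v1d at 9.08. In Cox10-/- Atp6v1e1 stood at 54.1, above Atp6v1a at 33.8, while Atp6v1b2 and Atp6v1c1 stood at 25.6 and 20.4. Exons of Atp6v1e1 overlap Slc25a18, and those of Atp6v1h overlap Rgs20, on the other strand.

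All 7 V0 and accessory members lay above 0, between 0.02 and 0.25 with a median of 0.11, and none passed. Atp6v0e, a small subunit of the membrane sector, lay at 5.26, 5.13, 5.23 and 5.23 log2 CPM in wild-type and 5.28, 5.42, 5.62 and 5.52 in Cox10-/-. It did not overlap, and its difference of 0.25 ± 0.12 (log2, SE, n = 4 per genotype) had a limma adjusted p of 0.179. Atp6v0a1, the proton-path subunit common to many cells, differed by 0.22 ± 0.10 (limma adjusted p = 0.17). Atp6v0c, the proteolipid of the rotor ring, differed by 0.18 ± 0.15, but 2 named pseudogene copies could share its reads. Atp6v0b, a second ring proteolipid, and Atp6v0d1, which joins ring and stalk, differed by 0.08 and 0.11. The accessory proteins Atp6ap1 and Atp6ap2, the latter also known as the prorenin receptor, differed by 0.02 ± 0.13 and 0.10 ± 0.09. The median of the 7 was 0.32 in replicates 1 and 2, where that of all genes was 0.05, and 0.00 in replicates 3 and 4, where that of all genes was -0.15.

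**Figure D3:**
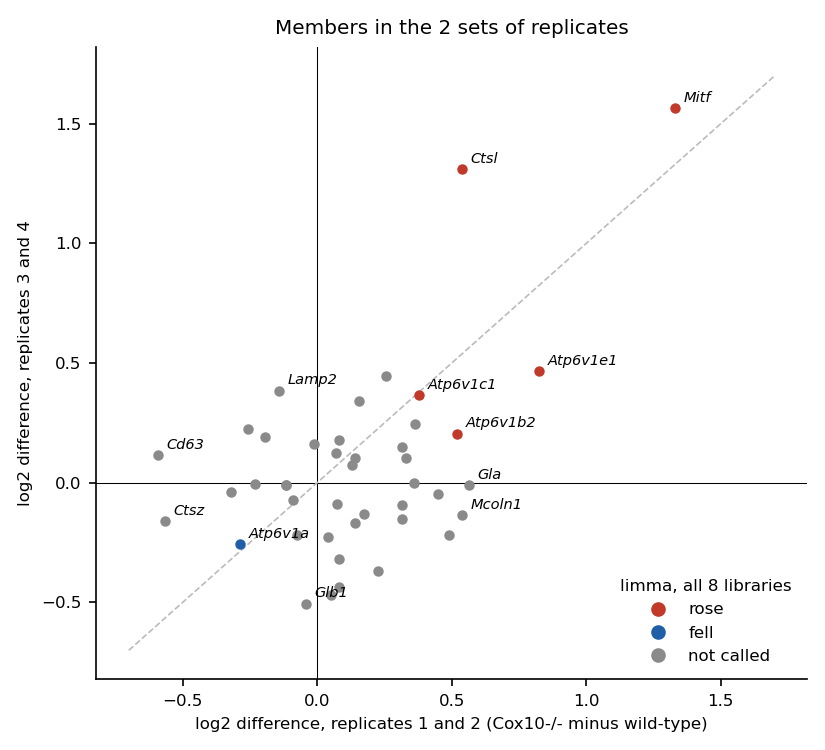
Difference between genotypes (log2, Cox10-/- minus wild-type) of each of the 43 members in replicates 1 and 2 (x axis) and in replicates 3 and 4 (y axis); the dashed line marks equal differences. The 6 called members keep their sign in both, while Cd63, Lamp2 and Mcoln1 lie in opposite-sign quadrants.

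In wild-type the closest libraries across genes were those numbered 1 and 2 and those numbered 3 and 4. In Cox10-/- replicates 1 and 2 were the closest, but replicate 3 correlated slightly better with replicate 2 (0.9716) than with replicate 4 (0.9703). Pearson correlations of both genotypes were 0.970 to 0.981 for replicates 1 with 2 and 3 with 4, and 0.958 to 0.972 in the other pairs. The labels give no reason for these likenesses. Of the 43 members, 14 lay above 0 and 9 below 0 in both sets of replicates, and replicates 1 and 2 gave a median of 0.13 (all genes 0.05), replicates 3 and 4 one of -0.01 (all genes -0.15). When the sets were averaged to 2 samples per genotype, Mitf (limma adjusted p = 0.00156) and Ctsl (0.0194) kept their calls, and the 4 V1 subunits did not (0.0755 for Atp6v1e1 and 0.295 to 0.354 for the others). In that fit 2.5% of all genes rose and 2.32% fell, and 4 of the 16 other lysosomal genes called below, Dnase2a, Slc17a5, Gnptab and Sort1, passed.

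Of the members with a promoter window, the 7 that held TCACGTGA were Mcoln1, Ctsa, Ctsd, Gla, Atp6v0d1, Atp6v0e and Atp6v1a. None of these rose and 1, Atp6v1a, fell, and their log2 fold changes lay between -0.27 and 0.31 with a median of 0.20. Among the 30 without it, 3 rose (Mitf, Ctsl and Atp6v1e1) and none fell, with a median of 0.05. Of the 15 with CACGTG, Ctsl rose and Atp6v1a fell. These counts are small, the background share of rises is 7.58%, and the difference between genes with and without a motif was not tested. Atp6v1b2 and Atp6v1c1, the other V1 subunits that rose, had no window.

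Other genes of the lysosome, 115 tested of 122 listed by role, moved in both directions, with 12 rises (10.4%) and 4 falls (3.48%) and a median of 0.00. Among these rises Atp6v0d2 was at 0 in every wild-type library and passed the filter only through the Cox10-/- libraries, so it had to differ; without it there were 11 rises among 114 genes. Beside the background of 7.58% and 8.51%, these shares are again near or below those of all genes. All 5 hydrolase calls, of 36 tested (13.9%), were rises. Dnase2a, the acid endonuclease that digests DNA from engulfed or autophagic material, lay at 3.46, 2.98, 4.05 and 3.95 log2 CPM in wild-type and 5.07, 5.23, 5.26 and 4.94 in Cox10-/-. It rose by 1.52 ± 0.23 (log2, SE, n = 4 per genotype; limma adjusted p = 9.6e-04), 2.86-fold, and did not overlap. Galc, which degrades galactosylceramide, lay at 4.71, 4.70, 4.59 and 4.56 in wild-type and 5.56, 5.38, 5.13 and 5.12 in Cox10-/- and rose by 0.66 ± 0.14 (limma adjusted p = 0.00816). The phospholipase-like Plbd2 rose by 0.41 ± 0.10 and the serine carboxypeptidase Scpep1 by 0.35 ± 0.09. Each lost its call in 1 of 8 leave-one-out fits, with Cox10-/- replicate 3 omitted (adjusted p = 0.0509 and 0.0523).

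Of 30 membrane and transport genes tested, 3 rose (10%) and none fell, beside 7.58% and 8.51% of all genes. Slc17a5, sialin, which exports free sialic acid from lysosomes, lay at 5.06, 4.62, 5.23 and 4.96 log2 CPM in wild-type and 5.67, 6.14, 5.99 and 5.95 in Cox10-/-. It rose by 0.97 ± 0.15 (log2, SE, n = 4 per genotype; limma adjusted p = 0.0012), 1.96-fold, with no overlap. Tmem192, a lysosomal membrane protein of low level here (2.57 to 3.31 in wild-type and 3.43 to 4.41 in Cox10-/-), rose by 0.97 ± 0.27 (limma adjusted p = 0.0277). Tmem55b, a phosphatase-like protein that helps to position lysosomes, rose by 0.43 ± 0.12 (limma adjusted p = 0.0331). The calls of Tmem192 and Tmem55b were lost in 3 and 7 of 8 leave-one-out fits; their highest adjusted p, 0.0955 and 0.109, came when Cox10-/- replicate 3 was omitted.

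Of 26 genes tested that deliver enzymes to lysosomes or act in lysosome fusion, 4 fell (15.4%) and 1 rose (3.85%), beside 8.51% and 7.58% of all genes. Whether this list differs from the others was not tested. Sort1, sortilin, a receptor that carries cargo from the Golgi to endosomes, lay at 7.01, 6.53, 6.81 and 7.12 log2 CPM in wild-type and 6.29, 5.99, 6.05 and 5.63 in Cox10-/-. It fell by 0.88 ± 0.16 (log2, SE, n = 4 per genotype; limma adjusted p = 0.0027). Gnptab, the enzyme that starts the mannose 6-phosphate tag on hydrolases, lay at 6.62, 6.30, 6.37 and 6.47 in wild-type and 5.92, 5.78, 5.60 and 5.54 in Cox10-/-, and fell by 0.73 ± 0.12 (limma adjusted p = 0.00145) to 60.3% of wild-type. Igf2r, the large receptor for that tag, lay at 9.60, 9.67, 9.51 and 9.55 in wild-type and 9.21, 8.93, 9.18 and 9.24 in Cox10-/-, and fell by 0.44 ± 0.09 (limma adjusted p = 0.00563). In these 3 genes all Cox10-/- libraries lay below all wild-type libraries, and the calls held whichever 1 library was left out. After median centring or upper quartile centring Igf2r was lower by less, -0.36 and -0.39, and was not called (limma adjusted p = 0.223 and 0.0539).

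Other delivery genes were less firm. The adaptor Gga3, which binds the tails of these receptors, fell by 0.61 ± 0.18 (log2, SE, n = 4 per genotype; limma adjusted p = 0.0385), overlapped, and lost its call in 6 of 8 leave-one-out fits (highest adjusted p 0.11, when wild-type replicate 1 was omitted). The smaller tag receptor M6pr differed by -0.24 ± 0.09 and was not called (limma adjusted p = 0.0952), and Gnptg, the other subunit of the tagging enzyme, differed by -0.08 ± 0.19. Plekhm1, an adaptor of lysosome fusion, lay at 5.82 to 5.98 log2 CPM in wild-type and at 6.59, 6.66, 6.36 and 5.99 in Cox10-/-. It rose by 0.49 ± 0.14 (limma adjusted p = 0.031) and lost its call in 7 of 8 leave-one-out fits (highest adjusted p 0.0889, with Cox10-/- replicate 2 omitted).

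**Figure D4:**
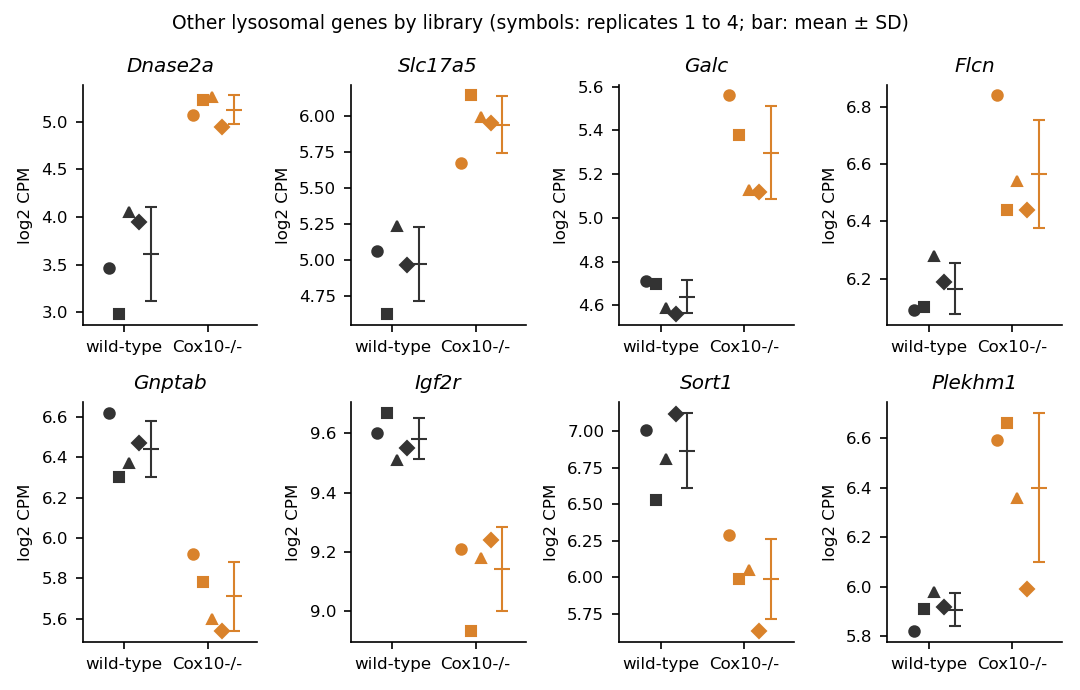
Log2 CPM (y axis, scaled per gene) of 8 other lysosomal genes in 4 wild-type and 4 Cox10-/- libraries; symbols mark replicates 1 to 4 and bars give mean ± SD. Dnase2a, Slc17a5, Galc, Flcn and Plekhm1 were higher in every Cox10-/- library, and Gnptab, Igf2r and Sort1 were lower in every one.

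A list of 14 tested genes held those that control the location of TFEB, TFE3 and MITF, and the repressor Zkscan3. It had 2 rises (14.3%) and no fall, beside 7.58% and 8.51% of all genes. Flcn, folliculin, which activates the Rag GTPases that bring these factors to mTORC1, lay at 6.09, 6.10, 6.28 and 6.19 log2 CPM in wild-type and 6.84, 6.44, 6.54 and 6.44 in Cox10-/-, and rose by 0.40 ± 0.11 (log2, SE, n = 4 per genotype; limma adjusted p = 0.0294). Rragc, 1 of those GTPases, lay at 6.03, 5.93, 6.18 and 6.11 in wild-type and 6.24, 6.42, 6.48 and 6.63 in Cox10-/-, and rose by 0.38 ± 0.11 (limma adjusted p = 0.0336). Neither overlapped, but their calls were lost in 5 and 6 of 8 leave-one-out fits; the highest adjusted p was 0.0842 when wild-type replicate 1 was omitted and 0.0917 when Cox10-/- replicate 3 was. Rragd, its close relative, differed by -0.07 ± 0.14 (limma adjusted p = 0.785).

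Of 9 V-ATPase genes outside the 43, mostly isoforms restricted to some tissues, none was called apart from Atp6v0d2, the d subunit isoform of osteoclasts and macrophages. It was listed at 0 in wild-type replicates 1 to 4 and at 0.21, 1.69, 1.69 and 1.24 log2 CPM in Cox10-/- replicates 1 to 4, close to the floor of the table (CPM of 1), and is given as levels with no test. The macrophage markers C1qa, Tyrobp and Adgre1 were not listed, and Cd163 lay at 0, 0, 0 and 1.69 in wild-type and 1.59, 1.58, 1.36 and 1.56 in Cox10-/-. The other measured macrophage markers were above 0 in every library, and their genotypes overlapped. Csf1r lay at 1.48 to 2.58 in wild-type and 2.14 to 2.95 in Cox10-/-, Cd14 at 1.80 to 2.80 and 1.82 to 4.07, and Lyz2 at 2.31 to 3.90 and 2.41 to 4.11. The part of such cells in the level of Atp6v0d2 was not tested.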

How the data were processed

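RNA-seq of 4 wild-type and 4 Cox10-/- muscle stem cell samples was analysed. Per the submitters' processing notes, the build was mm9 and the tools included HISAT2, featureCounts, DESeq2 and Trim Galore, with neither versions nor strand settings given in the sources used here. Deposited values are log2 CPM made by the authors, rounded to 2 decimals, with a CPM of 1 or less listed at 0. A further 1054 rows hold no gene. Low values were whole multiples of 1 read in 100% of cases up to 20 reads (tolerance 0.1 read), which gave depths. Genes above 0 in at least 4 libraries (17801, 46 removed) were fitted with limma 3.58.1 (R 4.3.3) on genotype alone, with a trended variance prior, no added pseudocount and Benjamini-Hochberg adjustment over all genes (threshold 0.05). Functions were tested on simulated data. Same-numbered replicates of the 2 genotypes correlated at 0.0453 to 0.137 in their deviations from group means, and other pairs at -0.215 to 0.165, so the numbers were not taken as pairs. The highest values were 0.165 (wild-type 1 with Cox10-/- 2) and 0.152 (wild-type 4 with Cox10-/- 3). Both lie inside the sets of replicates 1 and 2 or 3 and 4, and the fit on genotype alone has no term for these sets. Named genes were all called members, the 3 transcription factors, the extremes and most abundant member of each role, members with adjusted p under 0.1, and up to 6 called genes per other list; any other gene named was chosen after its values were seen, and 1 called gene is not reported here. The members and lists were chosen with earlier results of these data known. Gene models and promoters are of GRCm38, and none of their coordinates was applied to the counts.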

Additional observations from a re-analysis of the deposited data

Results flagged for a closer look

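A single library stood far from the other 3 of its genotype in 4 of the 86 groups of members examined, by the gap to its nearest neighbour as a share of the range (critical value 0.829 for 4 samples); chance flags about 1 in 20 groups. Glb1 in wild-type replicate 2 was low, at 3.60 log2 CPM against 4.80 for the nearest (gap 0.889 of the range), and without that library Glb1 differed by -0.59, past the threshold. Tfe3 in wild-type replicate 4 was low, at 6.61 against 6.97 (gap 0.878), and without it Tfe3 differed by -0.19 and was not called. Ctsl in wild-type replicate 2 was high, at 7.51 against 7.24 (gap 0.844), and its rise kept its call without that library. Atp6v0b in Cox10-/- replicate 1 was high, at 5.15 against 4.70 (gap 0.865).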

How the results depend on the processing

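Of 120 refits of the 6 called members under 20 alternatives, 85 kept the call, 35 lost it and none changed direction. Blocking on replicate number, a term for the sets of replicates, averaging the sets and changing the filter on low values all leave the estimate as it was. In those refits the direction could not change. Of 319 refits of the 16 other called genes, 242 kept the call and 77 lost it. These include refits of Atp6v0d2, which had to differ, so they give it no support. Counts of other lysosomal genes below include Atp6v0d2 wherever it was called. Mitf, Ctsl and Atp6v1e1 kept their calls in every fit without 1 library. With 2 means per genotype 858 genes passed (445 rises, 413 falls), 2 members rose and 0 fell, 2 other lysosomal genes rose and 2 fell, and 5 members lay lower without overlap. No member fell after median centring, after upper quartile centring or in replicates 3 and 4 only, where 7.07%, 8.24% and 11% of all genes fell. In 4 fits 2 members fell. These had the set of replicates (1 and 2, or 3 and 4) as a term, replicates 1 and 2 only, no 2 shallowest libraries, or limma voom on recovered reads. In the same order, 11.4%, 4.89%, 9.3% and 8.97% of all genes fell. These small member counts are not read as a result about the members. The members without overlap that were lower numbered 0 after either centring and 5 without the 2 shallowest libraries. In replicates 1 and 2 only, 20 members lay higher and 9 lower without overlap, and 871 genes fell. In replicates 3 and 4 only, 14 members lay higher and 13 lower. There 5 of 115 other lysosomal genes rose and 14 fell, beside 5.74% and 11% of all genes, so the falls lay near the background. With the term for sets of replicates 3838 genes passed, and 8 other lysosomal genes fell beside 11.4% of all genes. Without 1 library, 1840 (without Cox10-/- replicate 3) to 2907 genes passed, with 1902 without wild-type replicate 1 (873 to 1439 rises, 952 to 1725 falls), 3 to 5 members rose and 0 to 1 fell, 4 to 11 other lysosomal genes rose and 3 to 6 fell, and 6 to 8 members lay higher and 2 to 4 lower without overlap. The shares of all genes without overlap, 9.3% higher and 11.8% lower, were taken for the main fit only. Fewer samples per genotype make a lack of overlap easier to meet. The member counts without overlap under these alternatives therefore have no background beside them and are not read as a result about the members. The cause of the shifts between alternatives was not tested.

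With the replicate number as a block, 3201 genes passed, 4 members rose and 1 fell, beside 8.84% and 9.15% of all genes. Atp6v1a (limma adjusted p = 0.0539), Atp6v1b2 (0.0507) and Atp6v1c1 (0.0672) lost their calls and Grn (0.0261) and Ctsz (0.0431) gained one. Of 4 wild-type libraries, 2 correlated best with their own number. Voom and upper quartile centring were chosen after seeing the data. The planned count test was not run, because the deposited values are log2.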

Other observations

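Some lysosomal genes outside the 43 lay just short of the threshold, in both directions, and are named here after their values were seen. Nearest to it was Gpr137b, of the membrane and transport list, which was higher in Cox10-/- by 0.91 ± 0.29 (log2, SE, limma adjusted p = 0.0521). It lay at 2.60 to 3.57 log2 CPM in wild-type and 3.41 to 4.52 in Cox10-/- and overlapped. Hgsnat and Laptm4b were lower, by 0.32 and 0.35 (limma adjusted p = 0.0667 and 0.0691). Tcirg1, the V-ATPase a3 subunit, known from osteoclasts, lay at 7.02, 6.68, 6.48 and 6.47 log2 CPM in wild-type and 6.46, 6.19, 6.31 and 5.60 in Cox10-/-, a difference of -0.52 ± 0.18 (SE, n = 4 per genotype; limma adjusted p = 0.068). Lamtor2, a subunit of the complex that anchors Rag GTPases to the lysosome, lay at 4.03, 3.85, 4.16 and 4.12 in wild-type and 3.38, 3.37, 3.69 and 3.56 in Cox10-/-, a difference of -0.54 ± 0.19 (limma adjusted p = 0.068). Zkscan3, a zinc finger repressor of lysosomal and autophagy genes, differed by -0.56 ± 0.18 (limma adjusted p = 0.0574) and was lowest in Cox10-/- replicate 4, at 5.15.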
